A study of Caenorhabditis elegans with 45 samples.

Results

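The mir-72, mir-73 and mir-74 genes of Caenorhabditis elegans form a small miRNA family, chosen here by gene name from a table of miRNA read counts. They are 3 of 257 miRNA genes in that table, and 2 of the 3 had reads. Small RNA was sequenced from whole mid L4 larvae that had fed on Escherichia coli HB101 for 45 hours at 20 °C, in 15 genotypes with 3 libraries each, named A, B and C. The study changed single bases of the let-7a miRNA outside its seed, from position 9 to position 22 counted from the 5′ end, and a mutant name such as U9G gives the original base, its position and the base that replaced it. The wild-type strain was VT1367, and maIs105 on chromosome V was present in every strain, wild type included. The strains with a let-7 change alone were U9G (VT3835), A10U (VT3836), A17U (VT3827), U18A (VT3797), A19U (VT3798), G20C (VT3829), U21A (VT3844) and U22A (VT3799). The strains G11U (VT3793), G12U (VT3825), U13A (VT3794), U14A (VT3795), G15A (VT3796) and U16G (VT3826) were also labelled with mnDp1(umnIs25), a duplication joining X and V, as +/+. The labels do not say whether the lettered libraries came from separate cultures, so p-values measure the spread between these libraries, which may be technical.

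A mature miRNA is cut from a hairpin precursor and pairs with target messenger RNAs mainly through its seed, the bases near its 5′ end. Members of a seed family can therefore recognise overlapping sets of targets. The mir-72, mir-73 and mir-74 miRNAs carry the seed of miR-31, a family found in flies and vertebrates, where miR-31 has been studied in tissue patterning and in tumours. Whole-animal RNA pools all tissues, so in these libraries more cells of a type and more miRNA per cell cannot be told apart.

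The members lie at 2 places in the genome. In the WBcel235 assembly, mir-72 (WBGene00003300) occupies positions 2452838 to 2452936 of the plus strand of chromosome II, between genes, 33 bases from the protein-coding gene pqn-42. On the plus strand of chromosome X, mir-73 (WBGene00003301) lies at 2368765 to 2368863 and mir-74 (WBGene00003302) at 2369043 to 2369139, with 179 bases between them. A miRNA of another seed family, mir-75 (WBGene00003303, 2372453 to 2372549), follows on the same strand 3313 bases after mir-74. The let-7 gene is also on chromosome X, with its start 12.4 Mb from that of mir-73.

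Across the series, miRNA counts per library ranged from 1018112 to 3567734 with a median of 2137801, and 61 of the 257 miRNA genes were at 0 in all libraries. As a check of the labels, let-7 reads of the wild-type form made up at most 0.561% of let-7 reads in 6 of the 8 mutants without the duplication, and up to 22.3% in U21A and U22A, whose changes sit at the 3′ end. The 6 mutants labelled with the duplication were split. This share was 11.1% to 37.1% in G11U, G12U and U13A. In U14A, G15A and U16G it was 0.0431% to 0.398%, as low as in mutants without the duplication. The library U9G replicate B stood apart: across miRNAs its log2 levels had r = 0.867 with the median library, and every other library had at least 0.981. Results below that rest on it are given with and without it.

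mir-74 had 0 reads in every library. Over all 45 libraries this was 0 of 95259678 miRNA counts, which allows a level of up to 0.0315 CPM (reads per 1000000 miRNA reads) if 3 counts are taken as the limit of a count of 0. Per library the same limit was between 0.841 and 2.947 CPM, and these limits cover counting error only. No level, ratio or test could be given for mir-74.

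The annotation at mir-74 differs from that of the other members. Its hairpin shares 52 bases with the non-coding RNA gene T24D8.14 on the same strand and 80 bases with T24D8.16 on the opposite strand. All 23 bases of one annotated mature arm, T24D8.7a, lie inside both genes, and 20 of the 22 bases of the other arm, T24D8.7b, lie inside T24D8.16. The hairpins of mir-72 and mir-73 overlap no exon of another gene. Among the 61 miRNA genes at 0, 33 (54.1%) overlap an exon of another gene on the opposite strand, against 10 (5.1%) of the 196 with reads. For exons on the same strand the shares were 11.5% (7 genes) and 7.65% (15 genes). lin-4, the founding miRNA of worm developmental timing, is also listed at 0 in every library and also overlaps an opposite-strand exon, as do mir-1, a muscle miRNA, and mir-71, which acts in lifespan; these 3 were named after their values were seen. How reads over shared positions or strands were assigned is not given in the sources used here, and the part of such overlaps in the 0 at mir-74 was not tested.

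mir-72 had more reads than mir-73, and both were among the more abundant of the 196 miRNA genes with reads in the table. In wild type it held 74006, 67468 and 49060 reads in replicates A, B and C, or 3.46%, 3.79% and 3.76% of miRNA counts, and ranked 5 of those 196 by mean CPM. Its share lay between 2.53% and 5.97% in the 44 libraries other than U9G replicate B, where its rank within a library ran from 4 to 12. mir-73 held 42439, 28927 and 21831 reads in wild type, or 1.99%, 1.63% and 1.67%, and ranked 20. Its share over the same 44 libraries was 1.3% to 2.38%, with ranks from 13 to 23. The neighbour mir-75 ranked 61 in wild type, at 0.0262% of counts on average.

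After scaling between libraries with edgeR's trimmed mean of M-values (normalised CPM below), wild type held 36685, 38129 and 38589 normalised CPM of mir-72 in replicates A, B and C, a mean of 37801 ± 993 (SD, n = 3). The corresponding values of mir-73 were 21037, 16348 and 17172 (18186 ± 2504, SD, n = 3). Wild type thus had the narrowest spread of any genotype for mir-72 as an SD relative to the mean (2.63%), and a wider one for mir-73 (13.8%).

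Without U9G replicate B, the order of genotype means of mir-72 began with G15A and U18A. G15A held 40962, 48198 and 40921 normalised CPM of mir-72 (43360 ± 4190, SD, n = 3). U18A held 34974, 37956 and 56158 (43029 ± 11467, SD, n = 3), so its mean rested on replicate C. Every G15A library was above the highest wild-type library, while 2 of the U18A libraries were below it. A19U followed with 37293, 35093 and 43116 (38500), then wild type, A10U with 32401, 34920 and 45284 (37535) and U13A with 31829, 36668 and 43608 (37368). In A10U and U13A the wild-type range lay inside the range of the mutant. G20C, whose replicate A held the lowest mir-72 level of the series, gave 27547, 42487 and 39431 (36488).

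The remaining mutants were lower in mean mir-72 and close to each other. U14A held 32547, 34532 and 40230 normalised CPM of mir-72 (35770), and G11U held 30307, 39367 and 35800 (35158). U22A held 35664, 31959 and 36938 (34854), and U16G held 33914, 35859 and 34252 (34675 ± 1039, SD, n = 3). All 3 U16G libraries were below the lowest wild-type library. U21A held 30072, 32647 and 41207 (34642), and U9G held 32816 and 35546 in replicates A and C (34181). A17U held 30593, 30778 and 39099 (33490), and G12U, at the end of the order, held 32295, 34698 and 33450 (33481 ± 1202, SD, n = 3). The G12U libraries too were all below wild type. None of the 14 neighbouring pairs in this order had ranges that did not overlap, and the highest mean was 1.3 times the lowest.

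For mir-73, U18A was at the top of the order, with 16945, 23785 and 20042 normalised CPM (20257 ± 3425, SD, n = 3). G15A held 19866, 21277 and 17651 (19598) and A10U held 16803, 17406 and 21770 (18659), ahead of wild type in the fourth place. The libraries of all 3 overlapped those of wild type. U14A held 17260, 18175 and 18016 normalised CPM of mir-73 (17817), U9G held 17973 and 17271 in replicates A and C (17622), and U21A held 15142, 17241 and 19278 (17220). A19U held 16122, 20638 and 14892 (17217), and U16G held 17069, 17361 and 16454 (16961). These means lay within the wild-type range.

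At the lower end of the mir-73 order, U22A held 14712, 19162 and 16106 normalised CPM (16660), G20C held 14216, 19787 and 14766 (16256), and G11U held 13954, 19127 and 14957 (16013). In each of these 3 mutants replicate B was the highest library. A17U held 13971, 16117 and 17560 (15883), and G12U held 14201, 18727 and 12682 (15203), the last of which was the lowest mir-73 level outside U9G replicate B. U13A closed the order with 14136, 15897 and 14684 (14906 ± 901, SD, n = 3), all below the lowest wild-type library. As for mir-72, none of the 14 neighbouring pairs in the order was free of overlap, and the highest mean was 1.36 times the lowest.

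**Figure D1:**
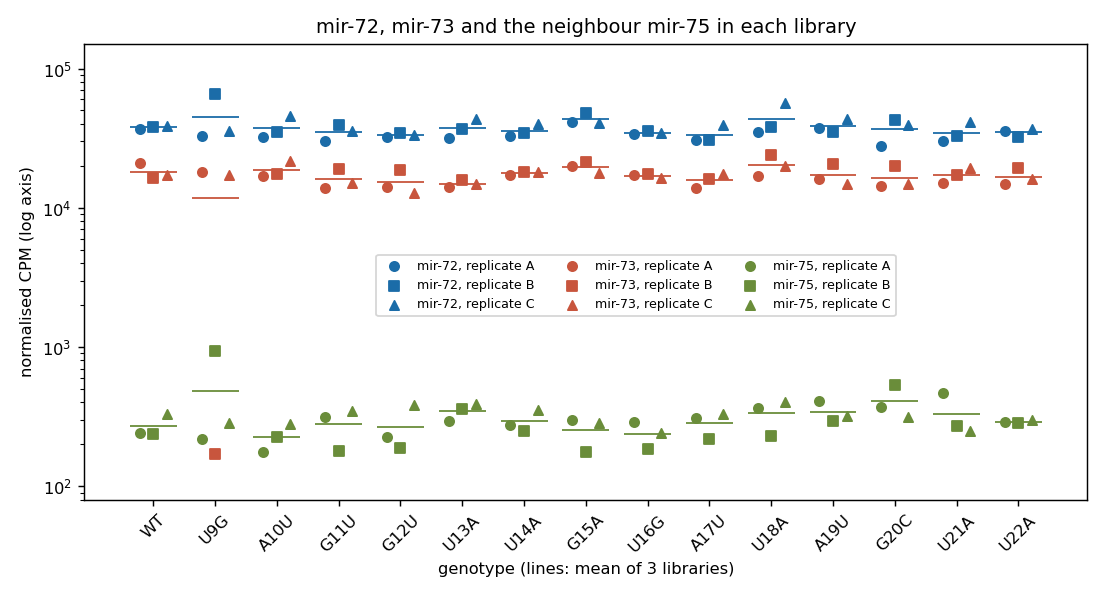
Levels of mir-72, mir-73 and the neighbouring mir-75 in each library, in normalised CPM on a log axis, by genotype; symbols mark replicates A, B and C and lines mark the mean of 3 libraries. mir-72 lies above mir-73 in all 45 libraries, and in U9G replicate B mir-73 falls to 169 normalised CPM while mir-72 and mir-75 are at their highest.

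U9G replicate B held 169 normalised CPM of mir-73, against 17973 and 17271 in replicates A and C, a level 105-fold below the mean of those 2. In reads this was 511 of 3416479, or 0.015% (Wilson 95% interval 0.0137% to 0.0163%), and mir-73 ranked 65 in that library. Among 107 miRNAs compared in this way, mir-73 had the second lowest ratio of replicate B to the other U9G libraries, after mir-789.2, which is named here after its value was seen. mir-72 moved the other way in the same library, at 65808 normalised CPM against 34181 on average in A and C, 1.93-fold higher and the highest normalised level of the series. Its share there was 5.84% of counts (Wilson 95% interval 5.81% to 5.86%), below the 5.97% of U18A replicate C. Both Wilson intervals cover counting error within this library only, not the spread between libraries. mir-75, the neighbour of mir-73, was also higher in that library, at 934 against 252 normalised CPM, or 3.71-fold. Counted from the lowest ratio, mir-72 ranked 76 and mir-75 ranked 92 of the 107, so other miRNAs had higher ratios than either. In the other 44 libraries mir-75 ran from 176 to 536 normalised CPM. The let-7 reads of U9G replicate B were 156878 of the mutant form and 22 of the wild-type form (0.014%), matching its label. The let-7 level itself was also higher there: 156878 of 3416479 miRNA counts, against 31371 of 1677194 in replicate A and 42055 of 2335308 in C.

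Each mutant was compared with wild type in a fit across all 45 libraries, which asks whether a let-7 change came with another level of a member. Neither mir-72 nor mir-73 passed the threshold of an adjusted p of 0.05 in any of the 14 mutants (edgeR's quasi-likelihood test, Benjamini-Hochberg adjustment over 130 miRNAs), and 0 of these comparisons had an unadjusted p below 0.05. Over all miRNAs, 1.43% of the same comparisons were past the threshold, and 1.65% without U9G replicate B. DESeq2, run only with U9G replicate B kept, also made 0 calls for both members.

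The mir-72 changes ran from a log2 fold change of -0.18 in G12U to 0.24 in U9G, with a median of -0.06 over the 14 mutants. The smallest edgeR adjusted p was 0.481, in U9G, where the value turned to -0.15 without replicate B. Without that library the changes of mir-72 ran from -0.20 in G12U to 0.21 in G15A (SE 0.174, edgeR adjusted p = 0.546 in G15A). The 95% intervals of the 13 mutants other than U9G then lay between -0.55 and 0.57. Libraries of G12U, G15A and U16G did not overlap wild type for mir-72, which is 3 of 14 mutants, while 11.9% of such comparisons over all miRNAs were without overlap. U9G joined these 3 when its replicate B was left out, against a share of 12.4% over all miRNAs.

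The mir-73 changes ran from -0.62 in U9G (SE 0.559, edgeR adjusted p = 0.493) to 0.16 in U18A. The U9G value was -0.05 without replicate B. That library also widened every mir-73 interval, since all genotypes share the estimate of spread: the median SE was 0.557 with it and 0.168 without it. Without it, mir-73 changes ran from -0.34 in U13A to 0.12 in G15A. The U13A change had a 95% interval of -0.68 to 0.00 and an unadjusted p of 0.0523, and its edgeR adjusted p was 0.501. U13A was the 1 mutant of 14 whose mir-73 libraries did not overlap those of wild type, while 11.9% of such comparisons over all miRNAs were without overlap (12.4% without U9G replicate B). The intervals of the 13 mutants other than U9G lay between -0.68 and 0.46.

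**Figure D2:**
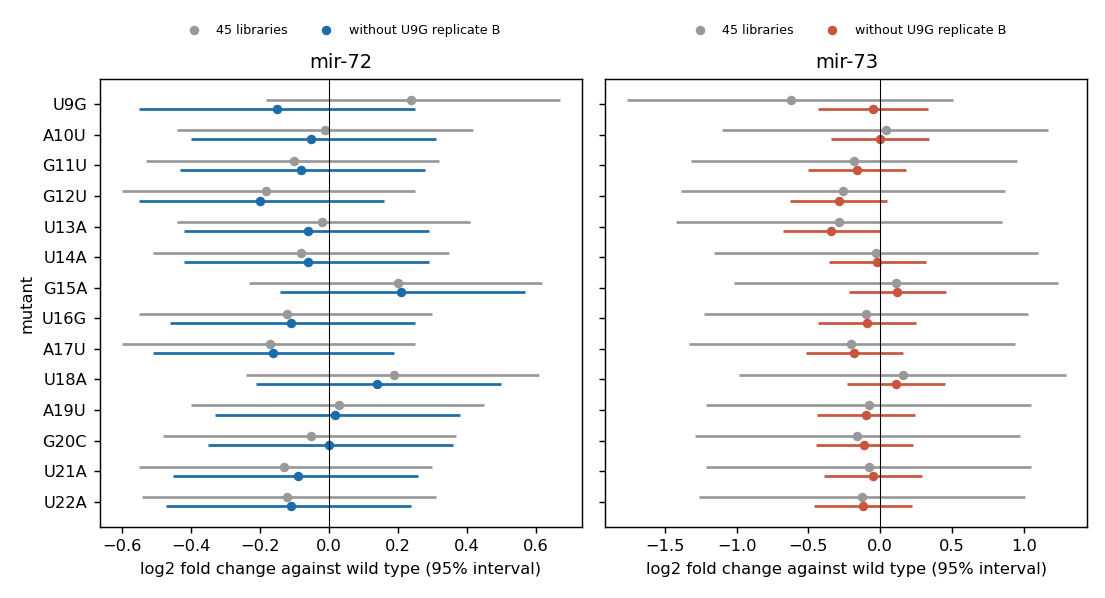
Log2 fold change of mir-72 (left) and mir-73 (right) in each mutant against wild type, with 95% intervals from edgeR's quasi-likelihood fit; grey shows all 45 libraries and colour the fit without U9G replicate B. The horizontal scales of the panels differ, and without U9G replicate B the mir-73 intervals narrow to a median SE of 0.168.

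The test of any difference among the 15 genotypes gave an edgeR adjusted p of 0.866 for mir-72 and 0.998 for mir-73, and 0.86 and 0.664 without U9G replicate B. Of all miRNAs tested, 15.4% passed this test, and 15.7% without that library. Averaged over the 14 mutants, mir-72 differed from wild type by a log2 value of -0.02 (edgeR adjusted p = 0.996) and mir-73 by -0.13 (edgeR adjusted p = 0.996). Without U9G replicate B these were -0.05 (95% interval -0.31 to 0.21) and -0.09 (-0.34 to 0.16). This contrast called 0% of the miRNAs tested by edgeR, with 7 at an unadjusted p below 0.05. The direction of the mir-72 mean turned positive, at 0.02 or 0.03, with total counts as the only scaling or under another filter on low counts.

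Counts summed per strain were used to set the 6 mutants labelled with the duplication against the 8 without that label. Whether all 6 carried it was not tested, and wild-type let-7 was at most 0.398% in U14A, G15A and U16G. mir-72 differed by -0.06 on the log2 scale (SE 0.0898, edgeR adjusted p = 0.811) and mir-73 by 0.03 (SE 0.121, edgeR adjusted p = 0.922), with 0% of 137 miRNAs past the threshold and 15 at an unadjusted p below 0.05. Without U9G replicate B the differences were -0.01 (95% interval -0.18 to 0.15) and -0.08 (-0.25 to 0.10). The mir-73 difference also turned to -0.01 without U18A replicate A or without U21A replicate A. An exact two-sided permutation test used strain means of log2 normalised CPM, whose differences are not those of the summed counts. Over 3003 splits, mir-72 differed by -0.031 (permutation p = 0.672) and mir-73 by 0.219 (permutation p = 0.862). Without U9G replicate B these differences were 0.009 (permutation p = 0.888) and -0.061 (permutation p = 0.404). The duplication goes with the positions from 11 to 16, so the label and the mutated position cannot be told apart.

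mir-72 was above mir-73 in 45 of 45 libraries. The ratio of their counts, which needs no scaling between libraries, was 1.74, 2.33 and 2.25 in wild type. Over the 44 libraries without U9G replicate B it ran from 1.6 in U18A replicate B to 2.97 in U13A replicate C, with a median of 2.11. In U9G replicate B it was 390. Genotype means of the log2 ratio lay between 0.95 in U9G and 1.32 in U13A when that library was left out, and their SD was 0.09, against 0.22 between libraries of the same genotype. A permutation test of the F statistic over genotypes gave F = 0.875 and p = 0.879 with all libraries, and F = 0.504 and p = 0.912 without U9G replicate B. Exact two-sided permutation tests of each mutant against wild type gave p-values from 0.4 to 1.0, where 3 against 3 libraries cannot go below 0.1. The F test passed the threshold when U9G replicate A (F = 1.85, permutation p = 0.031) or replicate C (F = 1.69, permutation p = 0.0431) was left out, each of which leaves replicate B and 1 other library in that genotype.

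The ratio also differed between the replicate letters. In 12 of the 14 genotypes other than U9G the highest ratio was in replicate C, with 1 genotype each for A and B. The median ratios over those genotypes were 2.06 in A, 1.96 in B and 2.31 in C. For mir-72 the medians were 32474, 35476 and 39831 normalised CPM in A, B and C, and the highest library was C in 9 genotypes, B in 5 and A in 0. For mir-73 the medians were 15632, 18451 and 16813, and the highest library was B in 10 genotypes, C in 3 and A in 1. What a letter marks is not stated in the labels, and these counts were made after seeing the data. Likeness by letter was not particular to these members: across miRNAs, 38 of 45 libraries correlated best with their own letter. The same counts were not made for other miRNAs.

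**Figure D3:**
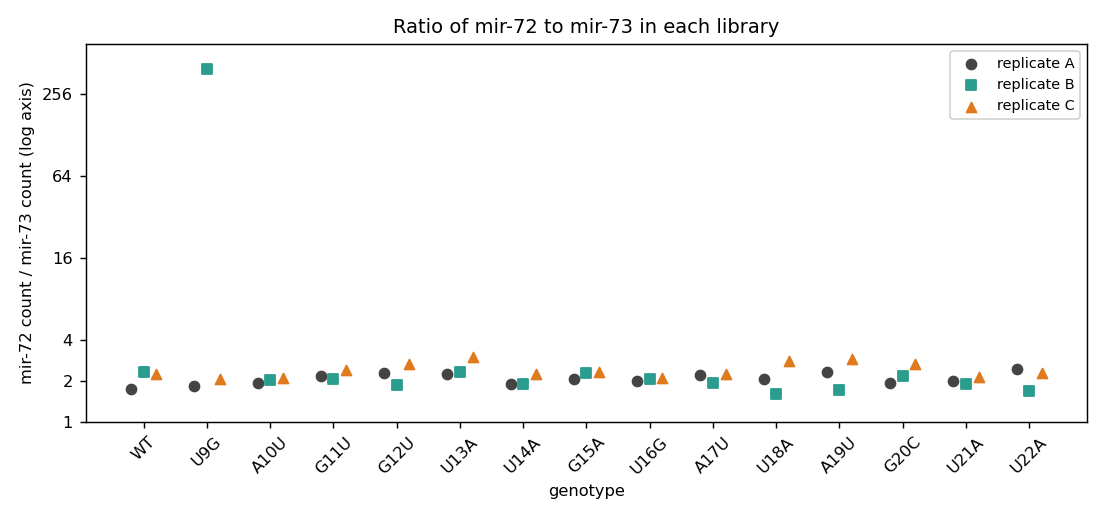
Ratio of the mir-72 count to the mir-73 count in each library by genotype, on a log axis, with symbols and colours for replicates A, B and C. All libraries but U9G replicate B, at 390, lie between 1.6 and 2.97, and replicate C is the highest in 12 of the 14 genotypes other than U9G.

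Whether mir-72 and mir-73 moved together from library to library depended on U9G replicate B. Over all 45 libraries Pearson's r of log2 normalised CPM was -0.453 (permutation p = 0.0227) while Spearman's rho was 0.389 (permutation p = 0.00906). Without U9G replicate B, r was 0.513 (permutation p = 0.00033) and rho 0.443 (permutation p = 0.00302). Leaving out in addition the 2 libraries farthest from the median of mir-72, G15A replicate B and U18A replicate C, gave r = 0.45 (permutation p = 0.00285). These permutations shuffled all libraries freely, as if libraries of the same genotype or letter were independent. On deviations from the genotype means, r was -0.515 over 45 libraries (permutation p = 0.324, permuted within genotype) and 0.426 over the 44 without that library (permutation p = 0.0432). This was 1 of the 3 planned pairs, and the other 2 had no value because mir-74 was at 0. Both levels are shares of the same library total.

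Within single letters, a split added after seeing the data, r was highest in replicate A. There it was 0.749 over 15 libraries (permutation p = 0.00118, rho 0.682 with permutation p = 0.00651), and 0.626 without the 2 libraries farthest from the median. In replicate B, without U9G, r was 0.514 over 14 libraries (permutation p = 0.056, rho 0.305 with permutation p = 0.285) and fell to 0.0357 without the 2 farthest, so it rested on those libraries. In replicate C, r was 0.549 (permutation p = 0.0344, rho 0.507 with permutation p = 0.0574) and 0.374 without the 2 farthest (permutation p = 0.211). Over the 15 genotype means of all libraries, r was -0.301 (permutation p = 0.29) and rho 0.389 (permutation p = 0.153). Without U9G replicate B, r over these means was 0.695 (permutation p = 0.00407) and rho 0.629 (permutation p = 0.0139), but r was 0.396 (permutation p = 0.182) without G15A and U18A, the genotypes highest in both members.

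**Figure D4:**
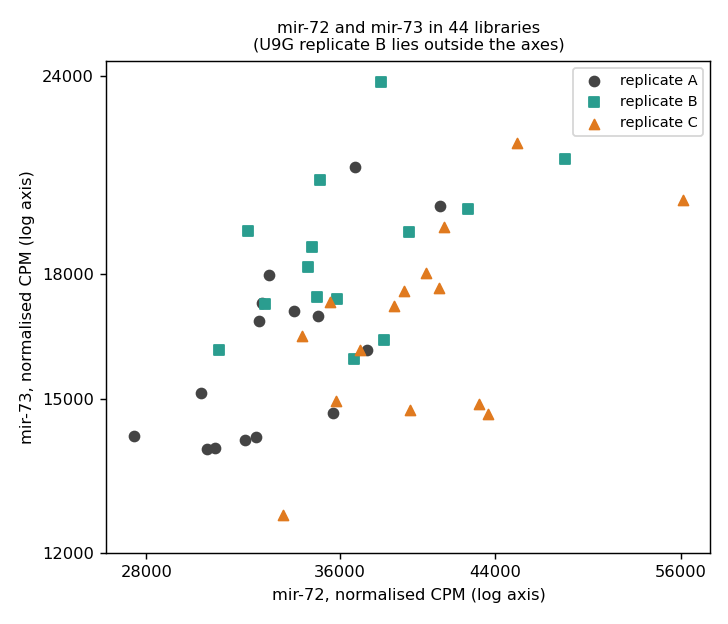
Normalised CPM of mir-72 (horizontal) and mir-73 (vertical) in 44 libraries, both on log axes, with symbols and colours for replicates A, B and C; U9G replicate B is outside the axes. Pearson's r over these libraries is 0.513, and replicate C libraries lie toward higher mir-72 at a given mir-73.

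let-7, the gene changed in the mutants, was set against both members over the 15 genotype means, with 2 relations computed. With U9G replicate B, r was -0.28 for mir-72 (permutation p = 0.315, rho -0.0929 with permutation p = 0.744) and -0.101 for mir-73 (permutation p = 0.543, rho -0.357 with permutation p = 0.192), each with an adjusted permutation p of 0.543. With total counts as the only scaling, mir-72 with let-7 moved to r = -0.509 (permutation p = 0.0516). Without U9G replicate B, mir-72 had r = -0.278 (permutation p = 0.314, adjusted 0.314) and rho = -0.0714 (permutation p = 0.803). mir-73 had r = -0.52 (permutation p = 0.0465, adjusted 0.093) and rho = -0.393 (permutation p = 0.147), with r = -0.47 (permutation p = 0.105) when G12U and G20C, the genotypes farthest from the median of let-7, were left out. The relation of mir-73 with let-7 therefore did not pass after adjustment.

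The miRNAs whose levels followed mir-72 most closely over the 44 libraries were mir-797 (r = 0.77), mir-228 (0.74), mir-233 (0.711), mir-53 (0.683) and mir-86 (0.683), by Pearson's r of log2 normalised CPM. mir-228 is known for its activity in glia, and mir-53 belongs to the mir-51 family. With the mean of each letter removed these 5 had r between 0.504 and 0.689. Over all 45 libraries mir-228 and mir-86 turned to -0.286 and -0.261, while mir-797, mir-233 and mir-53 were at 0.829, 0.695 and 0.793. mir-73 was 12th of 133 miRNAs in likeness to mir-72, and the median r over the 133 was 0.08.

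For mir-73 the closest were mir-55 (r = 0.64), mir-249 (0.623), mir-229 (0.611), mir-228 (0.592) and mir-51 (0.573). mir-55 and mir-51 belong to the mir-51 family, and mir-229 to the mir-64 family. Over all 45 libraries, mir-228 was at 0.955, mir-51 at 0.782 and mir-229 at 0.399, while mir-249 was at -0.0257 and mir-55 at -0.141. mir-72 was 7th in likeness to mir-73. The neighbour mir-75 was 101st, with r = -0.266 over 44 libraries and -0.607 over 45, and with mir-72 it had r = 0.127 over 44. These correlations are descriptions over libraries that share their genotypes and letters, and carry no test.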

How the data were processed

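Reads were trimmed, aligned and counted by the authors with cutadapt 1.9, Bowtie2 2.3.4.3 and featureCounts of Subread 1.6.2, per the submitters' processing notes, from libraries made by ligation with the NEBNext small RNA kit, per the labels' protocols. The genome build and the counting options are not given in the sources used here. The authors deposited raw read counts per miRNA gene for 45 libraries and counts of each let-7 form. The let-7 row was replaced here by the count of the form that the strain encodes.

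The main test was that of edgeR 4.0.16, run under R 4.3.3 (TMM scaling, filterByExpr, quasi-likelihood test, Benjamini-Hochberg over all miRNAs, threshold 0.05), and with DESeq2 1.42.0 as an alternative. The fit was also run on simulated data with larger changes than those of the members and no library like U9G replicate B. That run does not show how well smaller changes would be found. Correlations used 100000 permutations. Positions came from the WBcel235 annotation, matched by gene ID for all 257 genes.

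The text names the 3 members, let-7, miRNA genes within 10000 bases of a member and the 5 miRNAs most correlated with each member; naming by shared seed was not applied. Members and lists were chosen with earlier results of these data known. Alternatives were other scalings, filters, tests, reference groups and let-7 counts, a replicate block, and each library left out.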

Additional observations from a re-analysis of the deposited data

Results flagged for a closer look

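U9G lay far from the other 7 strains without the duplication in mir-73: its mean over 3 libraries was 11.87 on the log2 scale of normalised CPM, while the others lay between 13.95 and 14.29. The gap made up 0.858 of the range, above Dixon's critical value of 0.526 for 8 strains. The log2 ratio of mir-72 to mir-73 stood apart in the same way, at 3.51 in U9G against 1.0 to 1.17 in the others, a gap of 0.933 of the range. Of 6 groups examined these 2 were past the critical value, which chance reaches in about 1 group in 20. They are not separate events: both hold the same mir-73 value of replicate B, already described as low. Passing the critical value therefore adds nothing about U9G as a strain, and the rate of chance does not apply to a value already seen. Without replicate B, U9G held 17622 normalised CPM of mir-73 and a mean log2 ratio of 0.95.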

How the results depend on the processing

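No alternative scaling, filter, test or reference made a call for mir-72 or mir-73 against wild type or across genotypes, and no left-out library did: the counts were 0 throughout. Apart from fits of only 6 libraries, these alternatives all kept U9G replicate B. In the main fit that library raised the median SE of mir-73 from 0.168 to 0.557. Their 0 calls for mir-73 therefore say little about smaller changes. Only the main settings were fitted without that library. Most values kept their direction. The sign changes that came with left-out libraries are given further on, and the others lay between -0.07 and 0.11. With total counts alone these were mir-72 in A10U (0.01), G11U (0.02) and U13A (0.03), mir-73 in U14A (0.04) and the mean of mutants for mir-72 (0.02). Without a filter they were mir-72 in U14A (0.01) and G20C (0.04), mir-73 in U14A (0.05) and the mir-72 mean (0.03). With at least 10 counts in every library they were mir-72 in A10U (0.01), mir-73 in U14A (0.03) and the mir-72 mean (0.03). mir-73 in A10U was -0.03 with DESeq2 size factors, with the DESeq2 test and with totals that omit let-7, and the last of these gave -0.07 for mir-72 in A19U. With the 13 other mutants as reference, mir-72 was 0.01 in A10U and U13A, and mir-73 was 0.11 in U14A, 0.03 in U16G, 0.06 in A19U and 0.06 in U21A. In a fit of only 6 libraries mir-73 in U14A was 0.01. Total counts moved the median log2 change of all miRNAs by up to 0.15, in G15A.

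With total counts alone, r of mir-72 with mir-73 was -0.264 (permutation p = 0.0925), no longer past the threshold, and that of mir-72 with let-7 was -0.509 (permutation p = 0.0516).

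Leaving out 1 library at a time gave ranges of -0.05 to -0.01 for the mir-72 mean of mutants, -0.22 to 0.01 for that of mir-73 (0.01 without wild-type replicate A), -0.11 to -0.01 for mir-72 by duplication and -0.08 to 0.05 for mir-73 by duplication (-0.08 without U9G replicate B, -0.01 without U18A replicate A or U21A replicate A). The ratio's F ranged from 0.504 to 1.85 and r of mir-72 with mir-73 from -0.519 to 0.496, where the highest is without U9G replicate B. r with let-7 ranged from -0.417 to -0.0344 for mir-72 and from -0.515 (permutation p = 0.0498, without U9G replicate B) to -0.0727 for mir-73. With scaling recomputed over the 44 libraries, r was 0.513 for mir-72 with mir-73 and -0.52 for mir-73 with let-7, as given above. In single mutants, leave-one-out values changed sign in 19 cases and kept it in 149. The ranges that crossed 0 were, for mir-72, -0.15 to 0.39 in U9G, -0.18 to 0.06 in A10U, -0.18 to 0.04 in U13A, -0.09 to 0.26 in U18A, -0.10 to 0.11 in A19U, -0.14 to 0.17 in G20C and -0.29 to 0.06 in U21A. For mir-73 they were -0.11 to 0.14 in A10U, -0.11 to 0.12 in U14A, -0.18 to 0.05 in U16G, -0.01 to 0.25 in U18A, -0.22 to 0.04 in A19U, -0.29 to 0.03 in G20C, -0.19 to 0.09 in U21A and -0.25 to 0.02 in U22A.

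Deviations of same-letter mutant and wild-type libraries correlated above 0.1 in 35 of 42 pairs, and 38 of 45 libraries correlated best with their own letter, a hint from the data and not the design, so letters were not treated as pairs. With the replicate block, no call changed: the mir-72 mean of mutants was -0.03, the edgeR adjusted p across genotypes was 0.538 for mir-72 and 0.999 for mir-73, r of mir-72 with mir-73 was -0.518 and the ratio's F was 0.907 (permutation p = 0.711). The block was fitted only with U9G replicate B kept, where the mir-73 SE in U13A was 0.573. It therefore cannot show whether a block would change the mir-73 results found without that library. A block could not pair the strains in the comparison by duplication, which sums libraries. Results with mir-74 had no value under any setting. Depth limits mir-74 only through the level that 0 reads allow.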
